A study of Mus musculus with 4 samples.

Results

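The genes described here are 8 members of the MEIS, PBX and PKNOX families of homeobox genes, taken by name from the 39179 genes counted in each library: Meis1, Meis2, Meis3, Pbx2, Pbx3, Pbx4, Pknox1 and Pknox2. All 8 were found in the files, and all 8 passed the filter on low counts that left 15822 genes for testing. RNA was sequenced from 4 single chimeras staged at E7.75, a stage of late gastrulation at which head and trunk are being laid out. The embryos had been made by injection of embryonic stem cells (ESCs) into 8-cell hosts of an ARC x RLZRFP cross, and ESC contribution was checked. In 2 embryos the ESCs carried doxycycline-inducible FLAG-Lhx1, a tagged form of the LIM homeodomain transcription factor LHX1, and in the other 2 they carried FLAG-Lhx1-mt (also written FLAG-Lhx1-Δ). Both groups received the same induction, 24 hours of doxycycline at 2 mg/mL with 5% sucrose in the drinking water of the foster mothers. An uninduced embryo was not analysed here. Each embryo is a mixture of ESC descendants and host cells, and the promoter that drives the transgene, the number of ESC clones and what is altered in FLAG-Lhx1-mt are not stated in the labels.

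Proteins of these families carry an extra loop in the homeodomain, which gives them the name TALE homeodomain proteins. PBX proteins bind DNA together with HOX proteins and raise their selectivity for target sites. MEIS and PKNOX proteins bind PBX proteins through a shared amino-terminal domain, help to keep them in the nucleus and join the same complexes on DNA. Meis1 and Meis2 are known to respond to retinoic acid, and in the embryo the TALE cofactors act in hindbrain segmentation, in the somites and limbs, in the heart and in the eye.

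In FLAG-Lhx1 embryos Pknox2 was 2.87-fold and Meis2 1.74-fold higher in mean level than in FLAG-Lhx1-mt embryos, and these were the 2 members that passed the test. Meis1 was 2.42-fold higher in mean level but missed the threshold. The PBX genes, which include the most abundant member per length, did not pass, and neither did Meis3 or Pknox1. No member fell. A gene was called when edgeR's quasi-likelihood test gave an adjusted p under 0.05 over all genes tested. By that rule 2 of 8 members were called, both higher, beside 6.17% of all tested genes in either direction and 2.62% in the direction of higher in FLAG-Lhx1. The median log2 fold (FLAG-Lhx1 minus FLAG-Lhx1-mt) was 0.46 over the 8 members and 0.01 over all tested genes. An unadjusted p under 0.05 was reached by 4 members, beside 21.3% of tested genes.

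The libraries held 21267116 to 30434442 counts, so that a count of 3 corresponds to 0.0986 to 0.141 CPM (counts per 1000000 counts). All CPM values of genes below are also scaled by the TMM factors of edgeR. Throughout, the values of a group are given in the order replicate 1, replicate 2. Lhx1 itself was at 129 and 114 CPM in FLAG-Lhx1 and at 126 and 98.5 CPM in FLAG-Lhx1-mt. Transgene and endogenous gene are counted together here, so this level does not check the labels. Summed over 7 markers of the anterior neural plate, the FLAG-Lhx1 embryos held 144 to 158 CPM and the FLAG-Lhx1-mt embryos 16.4 to 27.3 CPM. Most of this sum was Hesx1, at 135 and 121 CPM in FLAG-Lhx1 and 13.2 and 23.2 CPM in FLAG-Lhx1-mt. Of the 7 genes 5 rose, and Rax and Emx2 were not called. Fezf2, which rose, passed the filter only through FLAG-Lhx1, with 0 counts in both FLAG-Lhx1-mt embryos. Over all tested genes, 2.62% were called higher and 3.55% lower. Of 8 genes of nascent and paraxial mesoderm 4 rose (Msgn1, Tcf15, Foxc1 and Foxc2) and 2 fell (T and Mesp1, log2 folds -0.70 and -1.47). Of 6 tested genes of epiblast and neural plate 1 rose (Sox2) and 2 fell (Epcam and Utf1, log2 folds -0.67 and -2.97). Of 8 visceral endoderm genes 5 fell, and their summed level was 1740 to 1992 CPM in FLAG-Lhx1 and 2994 to 3537 CPM in FLAG-Lhx1-mt. Markers of trophoblast (7.70 to 9.62 CPM over 7 genes), maternal decidua (3.93 to 4.98 CPM over 5 genes) and primitive blood (2.41 to 4.95 CPM over 6 genes) were low in all 4 embryos, and none of these 18 genes was at 0 in every library. How far these differences in marker levels take part in the results below was not tested. In whole embryos, a change in the number of cells that express a gene and a change in its RNA per cell cannot be told apart.

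The start regions of Meis1 and Meis2 are shown because these MEIS genes had the higher levels in FLAG-Lhx1. The sequences are from RefSeq on GRCm38.p6, which lists start windows for 5 of the 8 members (Meis1, Meis2, Meis3, Pbx2 and Pbx4). Shown is the longest stretch of each window, from 250 bases before to 50 bases after the start, that lies outside all exons annotated for the gene. Both are on the minus strand and are printed 5′ to 3′, with CG dinucleotides in capitals. The Meis1 stretch (chr11:19018986-19019219) lies just upstream of the first exon, and the Meis2 stretch (chr2:116064722-116064801) lies inside the annotated gene, between exons.
Meis1: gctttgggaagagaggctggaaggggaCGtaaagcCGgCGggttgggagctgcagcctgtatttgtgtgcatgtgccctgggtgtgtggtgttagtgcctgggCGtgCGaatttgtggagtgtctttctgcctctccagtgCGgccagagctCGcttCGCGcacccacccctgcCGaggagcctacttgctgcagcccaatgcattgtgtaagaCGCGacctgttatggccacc
Meis2: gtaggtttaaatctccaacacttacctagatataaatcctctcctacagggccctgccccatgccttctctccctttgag
The Meis1 stretch of 234 bases holds 12 CG dinucleotides and 60.3% G and C, and the Meis2 stretch of 80 bases holds 0 CG dinucleotides and 47.5% G and C. The whole 300-base windows of the 5 members were searched on both strands for 4 short motifs. These were the MEIS and PKNOX core TGACAG, the composite PBX and HOX motif TGATNNAT, the LIM homeodomain core TAATTA and the nuclear receptor core AGGTCA, none of which contains another. None of the 5 windows held any of these letters, which occur in 19.2%, 8.85%, 5.29% and 16.3% of the 32851 RefSeq windows of this length.

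Pknox2, which encodes a PKNOX protein of more restricted expression than PKNOX1, was at 16.7 and 13.2 CPM in FLAG-Lhx1. In FLAG-Lhx1-mt replicates 1 and 2 it was at 6.44 and 3.96 CPM. Both FLAG-Lhx1 embryos were above both FLAG-Lhx1-mt embryos, by more than the counting intervals of any embryo (the closest being 11.7 to 14.9 CPM and 5.45 to 7.56 CPM, exact Poisson 95%, counting error only). The mean was 15.0 ± 2.44 CPM against 5.20 ± 1.75 CPM (SD, n = 2 each), and the log2 fold 1.53 ± 0.28 (SE; edgeR, adjusted p = 0.00467). Pknox2 ranked 163 of 15822 genes by p. Its call was kept with each embryo left out in turn, with log2 folds of 1.20 to 1.91, and under the other settings tried. Pknox2 (ENSMUSG00000035934) lies on the minus strand of chromosome 9 at 36890982 to 37147407 of GRCm38, and exons of other genes cover none of its exon bases.

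Pknox1 encodes the broadly expressed PKNOX protein and did not show the pattern of its paralog. Its levels were 2.52 and 3.31 CPM in FLAG-Lhx1 and 3.14 and 7.09 CPM in FLAG-Lhx1-mt. The high value was that of FLAG-Lhx1-mt replicate 2, and the other 3 embryos lay close together, so that the groups overlapped. The log2 fold was -0.83 ± 0.39 (SE, edgeR adjusted p = 0.234; unadjusted 0.0492), and it was -0.13 without FLAG-Lhx1-mt replicate 2. Without FLAG-Lhx1-mt replicate 1 it was -1.30 and passed the test (adjusted p = 0.00370). FLAG-Lhx1-mt replicate 2 also held 52 counts of Prl8a2, a decidual marker, against 2 or 3 in each other embryo, and 39 counts of the red cell gene Klf1 against 2 to 4; their part in the level of Pknox1 was not tested. Prl8a2 and Klf1 were picked after their values were seen. Pknox1 (ENSMUSG00000006705) lies on chromosome 17 at 31564734 to 31607693 of GRCm38, and a gene on the other strand covers 2.24% of its exon bases.

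The ratio of Pknox2 to Pknox1 per length of exon does not depend on how libraries are scaled. It was 4.44 and 2.68 in FLAG-Lhx1, and 1.38 and 0.375 in FLAG-Lhx1-mt. Pknox2 was thus the more abundant of the pair in 3 embryos and the less abundant in FLAG-Lhx1-mt replicate 2. The ratio of Meis2 to Meis3, computed in the same way, was 4.23 and 3.17 against 1.71 and 1.26. That of Meis2 to Pbx3 was 0.673 and 1.14 against 0.539 and 0.381, and that of Meis2 to Meis1 was 4.26 and 4.15 against 4.54 and 10.3. The first 3 ratios were higher in both FLAG-Lhx1 embryos, and that of Meis2 to Meis1 was lower in both. These 4 ratios were chosen after the values were seen. The exact two-sided permutation p was 0.333 for each, the smallest that 2 embryos against 2 can give, and 0.333 after Benjamini-Hochberg adjustment over the 4.

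Meis2, which encodes a MEIS protein of paraxial mesoderm, hindbrain and anterior neural tissue, was the member with the most counts in FLAG-Lhx1 embryos. It was at 41.6 and 45.9 CPM in FLAG-Lhx1 and at 30.3 and 20.0 CPM in FLAG-Lhx1-mt. The groups did not overlap, and the FLAG-Lhx1-mt embryos differed from each other more than the FLAG-Lhx1 embryos did (1.51-fold and 1.10-fold between the higher and the lower embryo). The mean was 43.8 ± 3.01 CPM against 25.2 ± 7.27 CPM (SD, n = 2 each), and the log2 fold 0.80 ± 0.20 (SE; edgeR, adjusted p = 0.0262). It no longer passed without FLAG-Lhx1 replicate 2 (0.74, adjusted p = 0.0800), nor without replicate 2 of FLAG-Lhx1-mt (0.51, adjusted p = 0.0829), nor with offsets for transcript length and GC content (0.61, adjusted p = 0.0761). Meis2 (ENSMUSG00000027210) lies on the minus strand of chromosome 2 at 115863064 to 116065839 of GRCm38, with no exon bases shared with other genes.

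Meis1, which encodes a MEIS protein known from hindbrain, limb and blood progenitors, was at 8.55 and 9.67 CPM in FLAG-Lhx1. In FLAG-Lhx1-mt it was at 5.84 CPM in replicate 1 and 1.69 CPM in replicate 2. Both FLAG-Lhx1 embryos were above both FLAG-Lhx1-mt embryos, and the 3.45-fold difference between the latter was the largest within a group among the 8 members. Their counting intervals, 4.90 to 6.91 CPM and 1.27 to 2.22 CPM, did not overlap. The mean was 9.11 ± 0.790 CPM against 3.77 ± 2.93 CPM (SD, n = 2 each), and the log2 fold 1.29 ± 0.41 (SE, 95% interval 0.42 to 2.17) missed the threshold (edgeR adjusted p = 0.0765). It passed without FLAG-Lhx1 replicate 1 (1.35, adjusted p = 0.0205) and without FLAG-Lhx1-mt replicate 1 (2.42, adjusted p = 2.92e-09), and was 0.62 (adjusted p = 0.209) without FLAG-Lhx1-mt replicate 2. It was called by DESeq2 (1.28, adjusted p = 0.0460), by limma-voom (1.61, adjusted p = 0.0238) and by edgeR with no count filter (1.24, adjusted p = 0.00287). Meis1 (ENSMUSG00000020160) lies on the minus strand of chromosome 11 at 18879817 to 19018985. Other genes cover 9.77% of its exon bases on the same strand and 8.51% on the other. Of these, Gm16140 had 0 to 2 counts per embryo.

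Meis3, a MEIS gene of the hindbrain, had values in the other direction, 2.60 and 3.82 CPM in FLAG-Lhx1 against 4.68 and 4.19 CPM in FLAG-Lhx1-mt. The groups did not overlap, but the counting intervals of FLAG-Lhx1 replicate 2 (3.00 to 4.78 CPM) and of both FLAG-Lhx1-mt embryos did (3.84 to 5.65 and 3.50 to 4.97 CPM). The log2 fold of -0.47 ± 0.34 (SE, 95% interval -1.19 to 0.24) did not pass (edgeR adjusted p = 0.454). Meis3 (ENSMUSG00000041420) lies on chromosome 7 at 16175090 to 16186504 of GRCm38, with no exon bases shared with other genes. Counting both called members and those that were not, the CPM of the groups did not overlap in 5 of 8 members, 4 higher and 1 lower, beside 52.2% of all tested genes (26.4% higher and 25.8% lower).

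**Figure D1:**
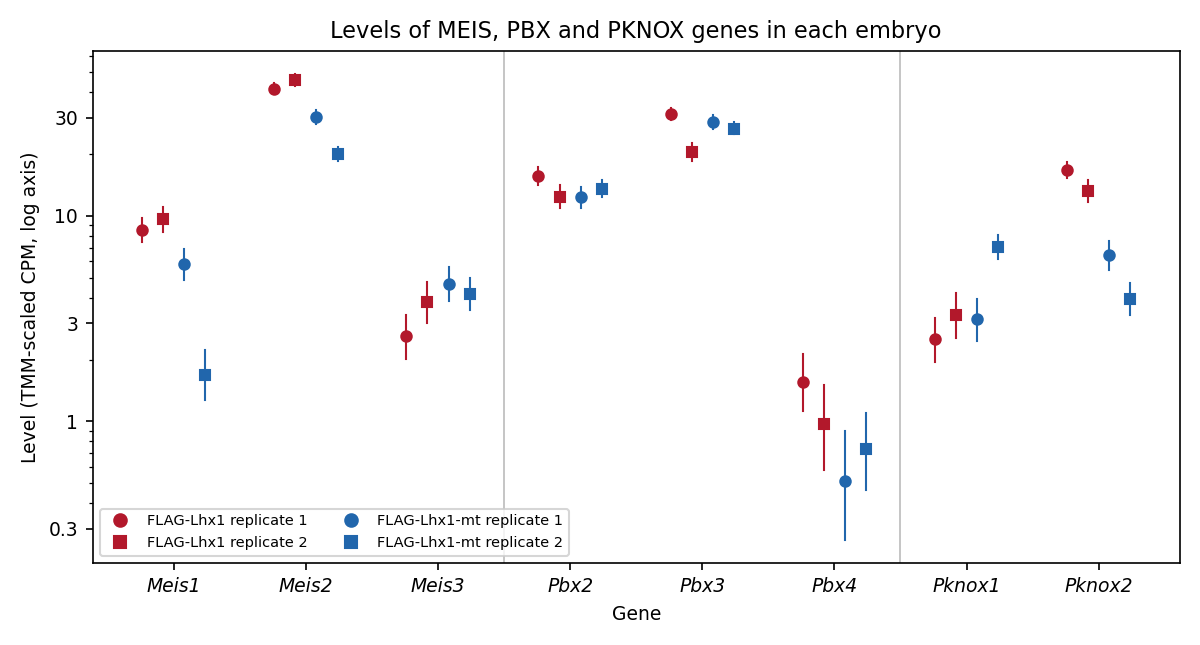
Level of each gene (x axis) in each of the 4 embryos as TMM-scaled CPM on a log axis; red marks are FLAG-Lhx1 and blue marks FLAG-Lhx1-mt, circles replicate 1 and squares replicate 2, and vertical lines are exact Poisson 95% intervals that cover counting error only. Pknox2, Meis2 and Meis1 were higher in both FLAG-Lhx1 embryos, Pbx2 and Pbx3 overlapped between the groups, and FLAG-Lhx1-mt replicate 2 stood low for Meis1 (1.69 CPM) and high for Pknox1 (7.09 CPM).

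The PBX genes encode the partners that MEIS and PKNOX proteins bind. Pbx3 was at 31.4 and 20.5 CPM in FLAG-Lhx1 and at 28.5 and 26.6 CPM in FLAG-Lhx1-mt. The highest and the lowest value were both in FLAG-Lhx1 embryos, so the groups overlapped. Its log2 fold was -0.09 ± 0.21 (SE, 95% interval -0.52 to 0.35, edgeR adjusted p = 0.859). Pbx2, a PBX gene expressed in most tissues, was at 15.7 and 12.4 CPM in FLAG-Lhx1 and at 12.3 and 13.5 CPM in FLAG-Lhx1-mt. These groups overlapped as well, with a log2 fold of 0.12 ± 0.22 (SE, 95% interval -0.35 to 0.60, edgeR adjusted p = 0.799). The 95% intervals of Pbx2 and Pbx3 thus lay within a 2-fold change in either direction. Both signs turned with 1 embryo left out, that of Pbx2 without FLAG-Lhx1 replicate 1 (-0.09) and that of Pbx3 without FLAG-Lhx1 replicate 2 (0.20).

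Pbx4, a PBX gene known from the testis, was the member with the fewest counts. It had 41 and 19 counts in FLAG-Lhx1 (1.56 and 0.967 CPM) and 12 and 23 in FLAG-Lhx1-mt (0.515 and 0.735 CPM). Both FLAG-Lhx1 values were above both FLAG-Lhx1-mt values, but the interval of FLAG-Lhx1 replicate 2 (0.582 to 1.51 CPM) overlapped those of both FLAG-Lhx1-mt embryos. The log2 fold was 1.01 ± 0.58 (SE, 95% interval -0.22 to 2.24, edgeR adjusted p = 0.340) and did not pass the test. Pbx2 (ENSMUSG00000034673) lies on chromosome 17 at 34591266 to 34597400 of GRCm38, where exons of Gpsm3 on the same strand cover 6.24% of its exon bases. Pbx3 (ENSMUSG00000038718) lies on chromosome 2 at 34171457 to 34373142 and Pbx4 (ENSMUSG00000031860) on chromosome 8 at 69832491 to 69872292, with no exon bases shared with other genes.

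**Figure D2:**
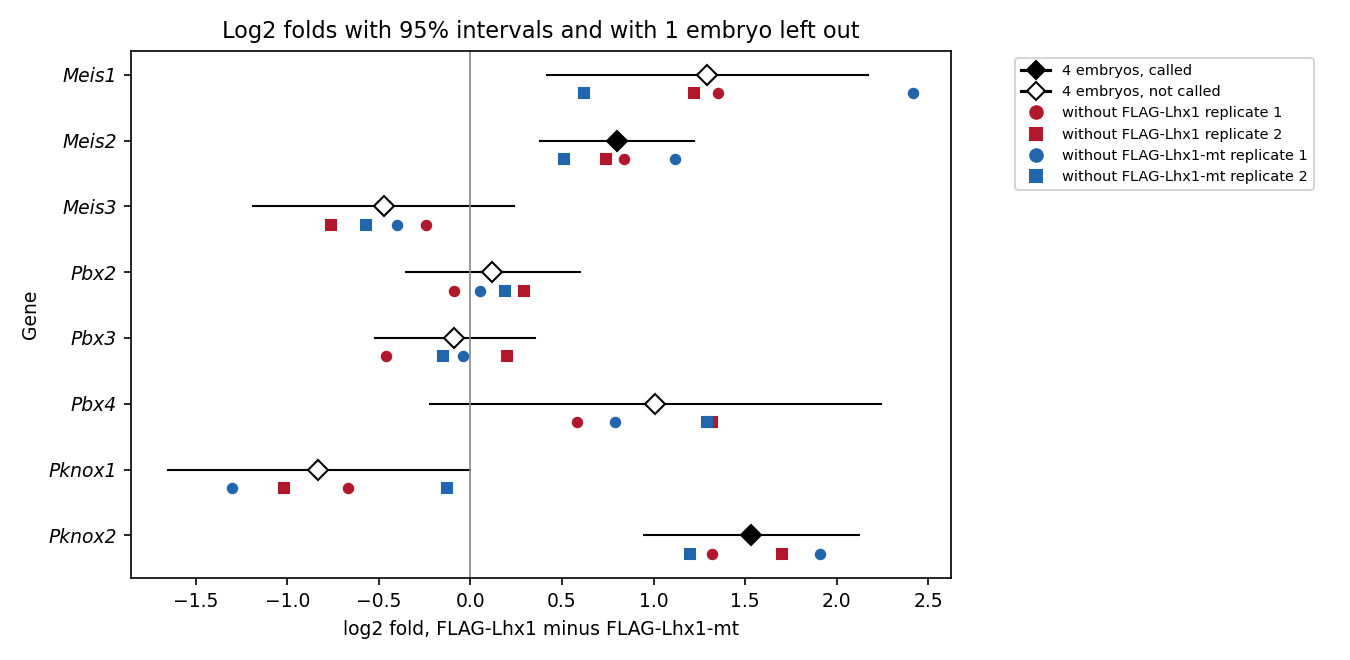
Log2 fold (x axis, FLAG-Lhx1 minus FLAG-Lhx1-mt) of each gene with 4 embryos (diamonds with 95% intervals from edgeR, filled where called) and with 1 embryo left out (coloured marks below, named for the embryo removed). Pknox2 and Meis2 were called, all 4 leave-one-out folds of Pknox2 lay between 1.20 and 1.91, and those of Meis1 spread from 0.62 to 2.42.

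Levels of different genes were compared as CPM per kilobase of all annotated exon bases of a gene. On this scale FLAG-Lhx1 embryos ranked Pbx3 first (4.24 ± 1.26), followed by Pbx2 (3.87 ± 0.643) and Meis2 (3.63 ± 0.250; SD, n = 2 each), and each of these overlapped its neighbour in the order. Pknox2 followed at 1.45 ± 0.236, apart from both neighbours. Meis3 (1.01 ± 0.272) overlapped Meis1 (0.865 ± 0.0750), and Pbx4 (0.571 ± 0.191) overlapped Pknox1 (0.420 ± 0.0804). In FLAG-Lhx1-mt embryos the first 4 genes were Pbx3 (4.52 ± 0.216), Pbx2 (3.55 ± 0.246), Meis2 (2.09 ± 0.604) and Meis3 (1.40 ± 0.110; SD, n = 2 each), none overlapping the next. Pknox1 (0.738 ± 0.404), Pknox2 (0.503 ± 0.170), Meis1 (0.358 ± 0.278) and Pbx4 (0.282 ± 0.0700) came last, and each overlapped its neighbour. Pknox2 thus stood at rank 4 in FLAG-Lhx1 and rank 6 in FLAG-Lhx1-mt, and Pknox1 at ranks 8 and 5. With the longest transcript as the length, an alternative chosen after seeing the data, Pknox2 (1.43) came ahead of Pknox1 (1.20) in FLAG-Lhx1-mt, at ranks 5 and 6, so that their order in that group turned with the choice of length. On the same scale Meis2 moved ahead of Pbx2 in both groups, at 7.96 against 4.59 in FLAG-Lhx1 and 4.58 against 4.21 in FLAG-Lhx1-mt.

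Summed per kilobase, the 8 genes reached 17.2 and 14.9 in FLAG-Lhx1 and 13.9 and 13.0 in FLAG-Lhx1-mt. Pbx2, Pbx3 and Pbx4 together made up 59.0% and 48.3% of this sum in FLAG-Lhx1, and 59.5% and 64.9% in FLAG-Lhx1-mt. Meis1, Meis2 and Meis3 together made up 29.5% and 39.9% against 32.7% and 24.2%, and Pknox1 and Pknox2 11.5% and 11.8% against 7.74% and 10.8%. The share of the MEIS genes overlapped between the groups, that of the PKNOX genes was higher in both FLAG-Lhx1 embryos, and that of the PBX genes was lower in both. The summed level of the PBX genes itself overlapped, at 10.2 and 7.19 per kilobase in FLAG-Lhx1 against 8.28 and 8.42 in FLAG-Lhx1-mt. Shares of the same sum depend on each other, so a higher share elsewhere lowers that of the PBX genes. All these shares use the exon union as the length, which for Meis2 is 12043 bases against 5498 in its longest transcript. Shares by longest transcript were not computed. Without Meis3, a choice made after its values were seen, the MEIS share was 24.8% and 31.8% against 22.1% and 14.1%. The members were chosen with earlier results known, so these sums are a description without a test.

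**Figure D3:**
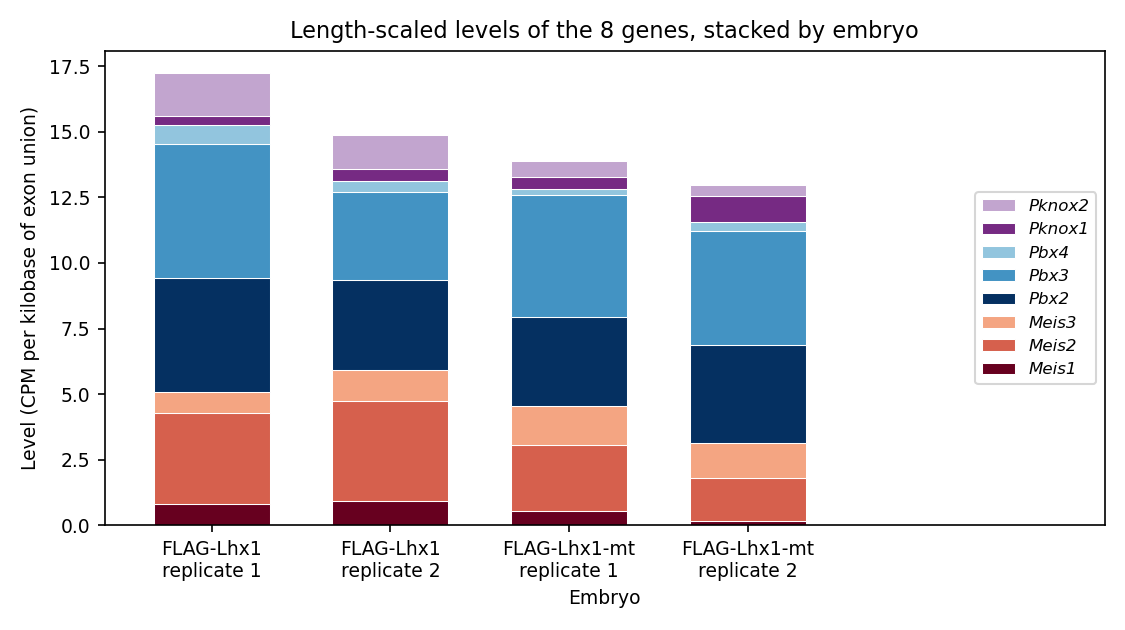
Level of the 8 genes in CPM per kilobase of exon union (y axis, from 0), stacked for each of the 4 embryos (x axis). Pbx3 was the largest segment in 3 of the 4 bars and Meis2 in that of FLAG-Lhx1 replicate 2 (3.81 against 3.41 for Pbx2 and 3.35 for Pbx3), and the segments of Meis1, Meis2 and Pknox2 were taller in both FLAG-Lhx1 embryos.

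The genes whose pattern over the 4 embryos lay nearest to that of a called member were found by the distance between log2 CPM centred on the mean of each gene, among 8600 protein-coding genes that averaged at least 5 CPM. Nearest to Pknox2 were Eya1, a coactivator that lacks DNA binding of its own (distance 0.097), the forkhead gene Foxb1 (0.134) and Pappa, which encodes a protease of IGF-binding proteins (0.232). Eya1 was at 10.0 and 8.55 CPM in FLAG-Lhx1 and at 4.04 and 2.49 CPM in FLAG-Lhx1-mt, the same order of embryos as for Pknox2. Nearest to Meis2 were Prtg, which encodes the cell surface protein protogenin, Tex15 and Sh3bgrl (distance 0.102 each). Prtg was at 747 and 813 CPM against 541 and 392 CPM, the order of embryos seen for Meis2. With 4 embryos such nearness is a description only.

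The HOX proteins of paralog groups 1 to 4 are the anterior HOX partners of PBX and MEIS. Of 10 of their genes described here, 5 passed the filter, 1 rose and none fell, beside 2.62% of all tested genes called higher. The median log2 fold of these 5 was 1.27, beside 0.01 for all tested genes. That median was the fold of Hoxd1, with 48 and 50 counts in FLAG-Lhx1 and 8 and 44 in FLAG-Lhx1-mt. Hoxb2 had 16 and 14 counts against 30 and 1. Neither gene would have passed the filter on the FLAG-Lhx1-mt embryos alone, so the filter could favour higher values in this median. The gene that rose was Hoxa2, which patterns the hindbrain and second branchial arch, at 2.48 and 5.14 CPM in FLAG-Lhx1 against 1.03 and 0.927 CPM in FLAG-Lhx1-mt. The groups did not overlap, and the log2 fold was 1.95 ± 0.46 (SE, edgeR adjusted p = 0.0196). It no longer passed without FLAG-Lhx1 replicate 2 (1.35, adjusted p = 0.276). Another gene on the same strand covers 15% of the exon bases of Hoxa2.

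Of 13 genes known as targets of PBX, MEIS or PKNOX complexes in other settings, 10 were tested, 4 rose and none fell (median log2 fold 1.41). Those that rose were Hoxa2, Aldh1a2, Pax3 and Isl1. Over all tested genes, 2.62% were called higher. Pax3 (7 and 4 counts in FLAG-Lhx1-mt) and Egr2 (6 and 7) passed the filter only through the FLAG-Lhx1 embryos. The filter thus favoured higher values in this count and median. Hoxa2, Hoxb1 and Hoxb2 are also among the HOX genes above, and Aldh1a2 is among the retinoic acid genes below, so these lists are not independent. Pax3, a gene of the dorsal neural tube and neural crest, was low, at 1.68 and 3.05 CPM in FLAG-Lhx1 and at 0.301 and 0.128 CPM in FLAG-Lhx1-mt (log2 fold 3.48 ± 0.64, SE, edgeR adjusted p = 0.00551). Isl1, a gene of heart progenitors and motor neurons, was at 20.8 and 23.0 CPM against 11.4 and 3.99 CPM (adjusted p = 0.0164). Its log2 fold was 1.52 ± 0.34 (SE), or 2.45 and 0.92 with FLAG-Lhx1-mt replicate 1 or 2 left out, and it did not pass in DESeq2 (adjusted p = 0.187).

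Retinoic acid induces Meis1 and Meis2 in many tissues. Of 13 genes for its supply, breakdown, binding and receptors 12 were tested, 3 rose and 1 fell (median log2 fold 0.28). Beside these stand 2.62% of all tested genes called higher and 3.55% called lower. Aldh1a2, the gene of the main retinoic acid synthesising enzyme of the trunk, rose from 1.20 and 0.415 CPM in FLAG-Lhx1-mt to 28.9 and 49.9 CPM in FLAG-Lhx1 (log2 fold 5.67 ± 0.38, SE, edgeR adjusted p = 8.57e-07). Crabp2, which encodes a carrier of retinoic acid to its receptors, was at 116 and 206 CPM in FLAG-Lhx1 against 42.8 and 29.0 CPM (2.17 ± 0.24, adjusted p = 8.58e-05). Cyp26a1, which encodes an enzyme that degrades retinoic acid, fell, from 112 and 164 CPM in FLAG-Lhx1-mt to 54.0 and 43.1 CPM in FLAG-Lhx1 (-1.50 ± 0.19, adjusted p = 0.000283). The third gene that rose was the receptor gene Rarb (2.26, adjusted p = 0.00261), named after its values were seen; genes on the other strand cover 38.4% of its exon bases, so its value is uncertain. Whether the levels of Meis1 and Meis2 depend on these genes was not tested.

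Of 9 TALE homeobox genes of other families, 8 were tested. Among them, the Iroquois genes Irx3 and Irx5, which act in the neural plate and heart, rose and none fell (median log2 fold 0.28). Irx1, part of that median, passed the filter only through the FLAG-Lhx1 embryos (3 and 5 counts in FLAG-Lhx1-mt). Tgif1, Tgif2 and Mkx were lower in both FLAG-Lhx1 embryos (log2 folds -0.35, -0.29 and -0.58), but none of these was called. Irx4 was also negative (-0.44), while Irx1, Irx2, Irx3 and Irx5 were positive. Summed over the 9 genes, the level was 156 and 171 CPM in FLAG-Lhx1 against 183 and 188 CPM in FLAG-Lhx1-mt. The shares over all tested genes were 2.62% called higher and 3.55% called lower. Irx5 was at 16.3 and 17.4 CPM in FLAG-Lhx1 and at 7.95 and 5.88 CPM in FLAG-Lhx1-mt (log2 fold 1.29 ± 0.24, SE, edgeR adjusted p = 0.00551). Irx3 was at 3.40 and 2.59 CPM against 0.988 and 0.320 CPM (2.23 ± 0.54, adjusted p = 0.0228), which no longer passed without FLAG-Lhx1 replicate 1 (1.99, adjusted p = 0.0869). Of 5 genes for proteins that bind and regulate PBX or MEIS proteins, 1 rose and none fell (median 0.20). It was Zfp462, which encodes a zinc finger protein that binds PBX proteins, at 26.6 and 21.0 CPM against 11.3 and 16.0 CPM (0.80 ± 0.22, adjusted p = 0.0456). It no longer passed without FLAG-Lhx1 replicate 1 (0.58), nor without replicate 1 of FLAG-Lhx1-mt (0.57), nor with the length and GC offsets (0.60).

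**Figure D4:**
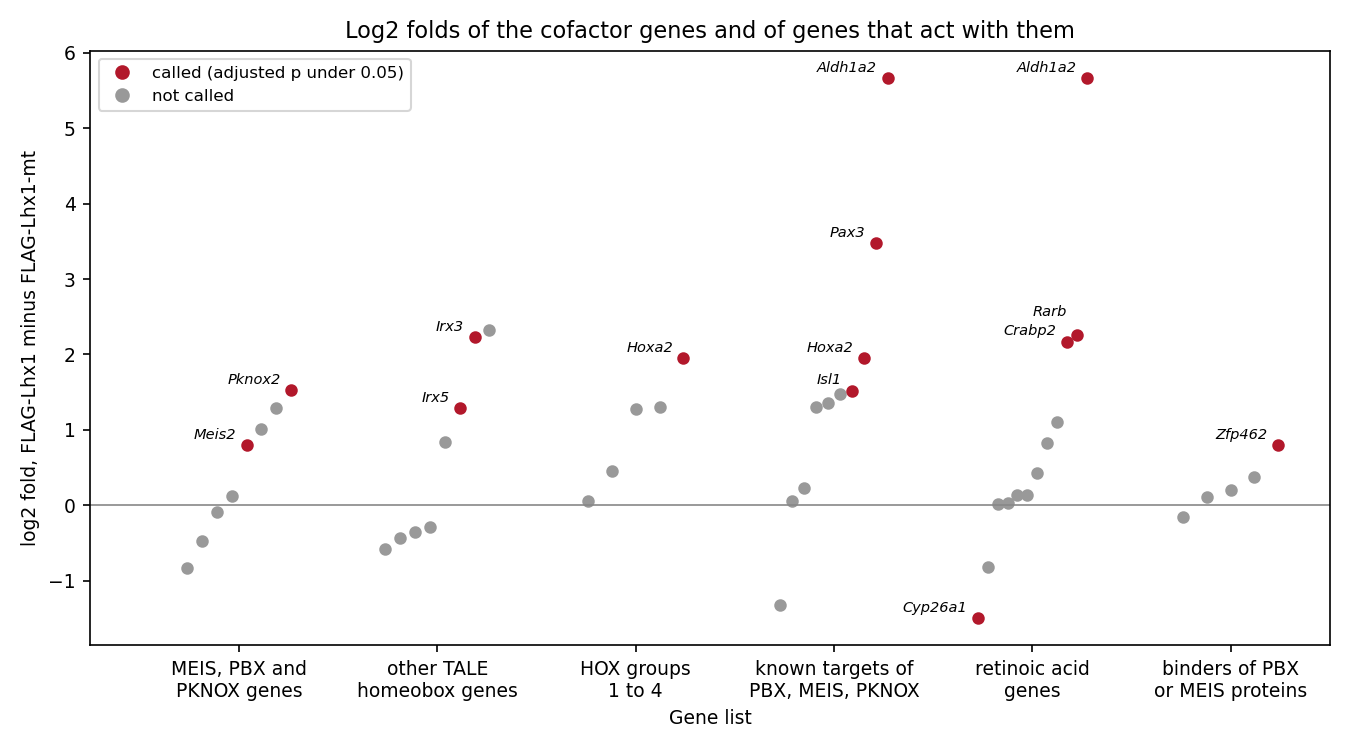
Log2 fold (y axis, FLAG-Lhx1 minus FLAG-Lhx1-mt) of the tested genes described here, from the cofactor families and from 5 lists of genes that act with them (x axis), each point a gene, red and named where called by edgeR at an adjusted p under 0.05, grey where not. Cyp26a1 (-1.50) is the only called gene below 0 in these lists, and Aldh1a2 (5.67), which is on 2 of them, is the highest point.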

How the data were processed

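The deposited files hold raw counts per Ensembl gene, not normalized, 1 library per embryo. The submitters' processing notes name STAR, Subread with featureCounts, GRCm38 and mm10, with versions and strand setting not given in the sources used here. Per the labels' protocols, libraries followed the Geo-seq protocol with 10 cycles of pre-amplification and Nextera XT, without molecular identifiers, so counting intervals cover counting error only. With the strand setting unknown, overlapping genes on opposite strands cannot be told apart.

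Symbols, positions, lengths and GC contents came from GENCODE vM21 (GRCm38), which holds 96.0% of the 39179 IDs. Genes were filtered with filterByExpr (minimum count 10, minimum total 15), scaled by TMM and compared by the quasi-likelihood F test of edgeR 4.0.16 (R 4.3.3) with group only as the model, with Benjamini-Hochberg adjustment over 15822 genes. Standard errors are the log2 fold over the root of F. Each p-value draws on 2 individual embryos a group (2 residual degrees of freedom, and 13.4 borrowed from other genes). No 2 libraries agreed within sampling noise (chi-square per degree of freedom 31.0 to 120). On data simulated for FLAG-Lhx1 against FLAG-Lhx1-mt over 15822 genes, edgeR called 51.0% of 100 genes shifted by 1 on the log2 scale and 86.0% of 100 shifted by 2, and 11 of 148 calls were false. Each simulated gene took its spread from a trend over all genes, without a spread of its own. Genes of low count were not shifted, so these rates need not hold for the real data.

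The 8 members and the gene lists were chosen with earlier results of these data known. 1 item of the lists is not reported here. Named by rule were the members, Lhx1, up to 3 called genes of each list (or that with the smallest p), and the 3 genes nearest to each called member (pseudocount 0.5). Alternatives were RLE (DESeq2's size factors) and upper-quartile normalization, no count filter, DESeq2 1.42.0, limma-voom (limma 3.58.1), per-library offsets for transcript length and GC content, the replicate number as a block, and each embryo left out. The longest transcript as the length was added after seeing the data.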

Additional observations from a re-analysis of the deposited data

How the results depend on the processing

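The number of genes called was 976, and 521 to 1648 with 1 embryo left out. The number of members called was 2, and 1 to 4 with 1 embryo left out; Pknox2 was called in each of those fits. With the length and GC offsets 1 member, Pknox2, was called. Across genes, which are not independent replicates, folds correlated with transcript length at a Spearman's rho of 0.245 and with GC content at -0.163. RLE, upper-quartile normalization, no count filter, DESeq2 and limma-voom gave 2, 2, 3, 3 and 3 called members, the added gene being Meis1, and no direction of a member changed under them. Upper-quartile normalization raised the share of calls that were higher in FLAG-Lhx1 from 42.5% to 54.4% of 867 calls. The no-filter fit called 952 genes lower, against 561. With 1 embryo left out, log2 folds ranged across 0 for Pbx2 (-0.09 to 0.29), Pbx3 (-0.46 to 0.20) and Lhx1 (-0.07 to 0.29). A fit that leaves an arm with 1 embryo assumes that it varies like the others.

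Replicate numbers are not said to mark a litter or batch, and the deviations of same-numbered embryos correlated at 0.0156 across genes. With the replicate block, 1138 genes and 3 members (Meis1, Meis2 and Pknox2) were called, and with the replicate block and the offsets 1248 genes and the same 3 members. Pbx4 had the fewest counts of the members, 12 to 41 per embryo, and DESeq2 gave it no adjusted p.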
